A study of Mus musculus with 68 samples.

Results

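The mitochondrial genome of the mouse carries 37 genes, and all 37 are present as gene rows in the 3 count tables of the series, 37 of 55335 gene rows in each. They were chosen by their symbols, which start with mt-, and fall into 13 protein genes, 2 rRNA genes and 22 tRNA genes. The study sequenced rRNA-depleted total RNA of untreated mouse embryonic stem cells (ESCs) of the line E14JU, grown on gelatin in serum with LIF, to ask how gene expression changes when parental histones are passed unevenly to the new DNA strands. The POLE4 table holds 3 POLE4-KO lines (Pole4 knocked out, 3 libraries each) and WT#1 (3 libraries). The rescue table holds MCM2-2A#2 (mutations in the histone-binding part of the helicase subunit MCM2), MCM2-R#2 (the MCM2-2A mutations reverted) and WT#1, with 4 cultures each in 14 libraries. The clone table holds 8 MCM2-2A lines (22 libraries) and 7 WT lines (17 libraries) in batches named for January, March and August. Each numbered line is 1 clone, so libraries of 1 line measure the spread within that clone and not among clones of a genotype. The labels call the 4 MCM2-R#2 libraries wild type and give them another line number than their columns do, so this group rests on the study's sample table.

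Mitochondrial DNA is transcribed from both strands as long polycistronic RNAs, which are cut at the tRNAs that lie between the other genes. The heavy-strand transcript carries both rRNAs, all but one of the protein genes and most tRNAs, whereas the light-strand transcript carries the complex I subunit mt-Nd6 and the remaining tRNAs. The proteins are subunits of complexes I, III, IV and V of the respiratory chain, and the rRNAs and tRNAs serve the translation of these proteins inside the organelle. In bulk RNA a change in the number of mitochondrial genomes, in their transcription or in the stability of the RNA cannot be told apart.

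The sequences below show how the smallest members look and why some protein genes are hard to count. The tRNA genes are 59 to 75 bases long, shorter than the 76- or 100-base reads of the study, so a read within a mature tRNA covers all of it. mt-Tf (tRNA-Phe, the first gene of the genome) and mt-Tv (tRNA-Val, between the rRNA genes) are the tRNAs called in the comparisons with WT#1 described here, and mt-Tl1 (tRNA-Leu, just after mt-Rnr2) is the most abundant tRNA of the POLE4 and rescue tables. They are given from the GENCODE vM21 transcripts on the build GRCm38 (mm10), 5′ to 3′ on the plus strand, with the anticodon in capitals.
mt-Tf, chrM:1-68: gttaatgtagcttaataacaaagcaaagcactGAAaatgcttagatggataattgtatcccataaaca
mt-Tv, chrM:1025-1093: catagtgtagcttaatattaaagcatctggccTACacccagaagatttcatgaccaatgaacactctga
mt-Tl1, chrM:2676-2750: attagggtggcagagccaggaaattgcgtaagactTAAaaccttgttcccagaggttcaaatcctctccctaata

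Of the 13 protein genes, 7 have an annotated pseudogene copy in 1 stretch of the nuclear genome, chr1:24611535-24616197 on the minus strand. Other nuclear pseudogenes share 76-base stretches with mt-Co1 (Gm13340), mt-Co2 (Gm13341) and mt-Nd2 (Gm13339), all on chromosome 2. For mt-Nd5 these are Gm11407 on chromosome 4 and Gm4076 on chromosome 13. The sums of a gene and its copy given below leave these pseudogenes out. The copies of mt-Co2, mt-Atp6, mt-Co3, mt-Nd4l and mt-Nd4 (Gm28661, Gm10925, Gm28437, Gm10222 and Gm28439) had no base different from their gene over 681, 678, 783, 294 and 876 aligned bases. Gm29216 holds 492 bases of mt-Co1 with 6 differences, and Gm28438 differs from mt-Nd3 by 1 base, T3C, counted from the first base of mt-Nd3. The first 60 bases of mt-Nd3 and of its copy are shown, each in the direction of transcription, with the differing base in capitals.
mt-Nd3, chrM:9459-9518, plus strand: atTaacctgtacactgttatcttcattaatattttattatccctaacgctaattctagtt
Gm28438, chr1:24613060-24613119, minus strand: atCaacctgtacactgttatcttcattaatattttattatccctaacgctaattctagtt

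Because of these copies a read from mt-Co2, mt-Atp6, mt-Co3, mt-Nd3 or mt-Nd4l nearly always has a nuclear position that matches as well. Of all 76-base windows of these genes, 97.8% to 99.9% also occur in another annotated transcript, against 61.5% for mt-Nd4, 39.4% for mt-Co1, 5.61% for mt-Nd2, 1.54% for mt-Nd5 and 0% for mt-Nd1, mt-Cytb, mt-Nd6, mt-Atp8 and both rRNAs. Sequence outside annotated transcripts was not searched. mt-Atp8 lies between mt-Co2 and mt-Atp6, whose copies are neighbours in the chromosome 1 stretch, so its reads may match there too. How reads with several positions were counted is not given in the sources used here. The tables differ in this respect. In the clone table the copy Gm28437 took 49.996% to 50.01% of the counts of mt-Co3 and its copy together, Gm28661 took 50.04% to 50.12% for mt-Co2, and Gm28438 took 50.06% to 50.2% for mt-Nd3. Gene and copy thus had nearly equal counts in each clone library. Whether a read was counted at both places was not tested, so a sum of gene and copy in this table may count reads more than once. In the rescue table the share of the copy was 58.2% to 87.5% for mt-Co3, 49.0% to 76.8% for mt-Co2 and 89.5% to 100% for mt-Nd3, and in the POLE4 table it was 67.5% to 88.9%, 49.2% to 72.2% and 76.5% to 97.3%. The values of these 5 genes in the rescue and POLE4 tables are therefore uncertain, and the sum of a gene and its copy is given beside them where a result turns on one. The table, the library kit, the read length and the counting cannot be told apart.

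**Figure D1:**
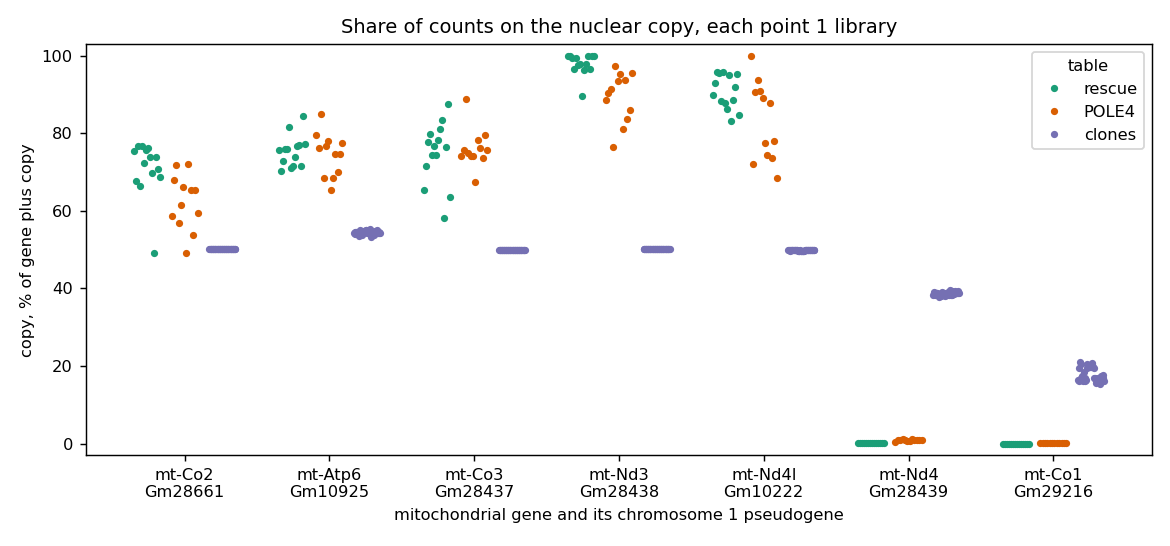
Share of counts that lie on the chromosome 1 copy, in percent of the counts of gene and copy together, for 7 mitochondrial protein genes, with 1 point per library (14 rescue, 12 POLE4, 39 clone libraries). The clone libraries sit between 49.996% and 50.01% for mt-Co3 and between 37.9% and 39.7% for mt-Nd4, whereas the rescue and POLE4 libraries scatter widely for mt-Co2, mt-Atp6, mt-Co3, mt-Nd3 and mt-Nd4l and lie at or below 1.14% for mt-Nd4 and mt-Co1.

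The split between gene and copy added to the spread between libraries. Over the 14 rescue libraries the coefficient of variation was 29.6% for mt-Co3 alone and 13.7% for the sum with its copy, 119% and 20.5% for mt-Nd3, and 60.03% and 20.8% for mt-Nd4l. In the clone table the same coefficients were 15.1% and 15.1% for mt-Co3 and 23.14% and 23.07% for mt-Nd4l. Gene and copy had nearly equal counts there, so these coefficients could hardly differ and say nothing about the spread that a split adds. Other members overlap each other by a few bases or more (mt-Atp8 with mt-Atp6, mt-Atp6 with mt-Co3, mt-Nd4l with mt-Nd4, and mt-Nd5 with mt-Nd6 on the opposite strand), and whether strand was used in counting is not given in the sources used here, so reads of such pairs may be shared.

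The levels of the members are given as CPM (counts relative to the library's total of gene counts, scaled with TMM factors) per kilobase (kb) of gene, as medians over the libraries of a table, and the tables were scaled separately. mt-Rnr2, the large-subunit rRNA, was the highest member in all 3 tables, at 19758 CPM per kb in the POLE4 table, 5839 in the rescue table and 8036 in the clone table. mt-Rnr1, the small-subunit rRNA, stood at 9578, 548 and 3892 CPM per kb, so that the median ratio of mt-Rnr2 to mt-Rnr1 per kb was 1.96 in the POLE4 table, 10.2 in the rescue table and 2.45 in the clone table. The libraries were depleted of rRNA with a kit, so rRNA levels are what was left after depletion.

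Among the protein genes mt-Co1, the catalytic subunit of cytochrome c oxidase, came first in each table, at 2446 (POLE4), 2967 (rescue) and 2768 (clones) CPM per kb. mt-Nd1 (a complex I subunit) stood at 1362, 1539 and 1276, and mt-Cytb (the cytochrome b of complex III) at 880, 1295 and 935. These were the next protein genes in the POLE4 and rescue tables, whereas in the clone table mt-Atp6, mt-Co3 and mt-Co2, which have copies, lay above mt-Nd1 and mt-Atp8 lay above mt-Cytb. mt-Nd5 (complex I) stood at 370, 707 and 370. mt-Nd6, the light-strand gene, was lower still at 98.5, 132 and 109 CPM per kb. The genes with copies changed places between tables: mt-Atp6 (a subunit of ATP synthase) had 2735 CPM per kb in the clone table but 462 and 453 in the rescue and POLE4 tables, and mt-Nd3 had 491 against 3.40 and 18.6. mt-Atp8 shares no 76-base window with another annotated transcript but lies between genes with a copy. It also differed, with 1013 and 1001 in the clone and rescue tables and 279 in the POLE4 table.

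The tRNA genes were close to the limit of detection. With 3 counts as the floor for a library, a level of up to 0.171 CPM (POLE4), 0.137 CPM (rescue) or 0.112 CPM (clones) cannot be told from 0 in the shallowest library. Of 22 tRNA genes, 8 passed the filter on low counts in the POLE4 table, 11 in the rescue table and 16 in the clone table, whereas all 13 protein and 2 rRNA genes passed in each. In the POLE4 libraries 6 tRNA genes (mt-Tq, mt-Ta, mt-Tn, mt-Tc, mt-Ty and mt-Tr) had a count of 0 in all 12, and in the rescue table mt-Tr did. The first 5 of these are light-strand tRNAs. mt-Tf was the tRNA that differed most in rank between tables, with a median of 20.8 CPM in the POLE4 table and 0.690 CPM in the rescue table, and it did not pass the filter in the clone table.

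The 37 genes together held 1.72% to 3.36% of the gene counts of a rescue library, 3.36% to 7.23% of a POLE4 library and 1.73% to 5.84% of a clone library. The 7 chromosome 1 copies, which are not among them, held 0.191% to 0.357%, 0.157% to 0.340% and 0.540% to 1.17%. Since the split between gene and copy differs by table, shares of the 37 genes are not like for like across tables. Libraries had 21882680 to 33779889 gene counts in the rescue table, 17500744 to 25659666 in the POLE4 table and 26723456 to 64068260 in the clone table, so the Wilson 95% interval of such a share is at most 0.0217 percentage points wide. Intervals and floors cover counting error only. The labels were checked first on the edited genes: Pole4 had 2.89 to 8.24 CPM in POLE4-KO libraries and 56.5 to 62.1 CPM in WT#1 libraries. In the rescue table Mcm2 had 208 to 233.5 CPM in MCM2-2A#2, 205 to 220 CPM in MCM2-R#2 and 396 to 446 CPM in WT#1. In the clone table WT#6 (211 to 220 CPM) and WT#8 (229.6 to 230.3 CPM) lay within the range of the MCM2-2A lines (169 to 273 CPM). The other WT lines lay above that range. ESC markers (6 genes) summed to 1748 to 2641 CPM in POLE4-KO and 2064 to 2456 CPM in WT#1 libraries. The nuclear noncoding RNA gene Gm26917 took 11.5% to 18.0% of gene counts in POLE4-KO and 10.6% to 12.2% in WT#1 libraries.

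**Figure D2:**
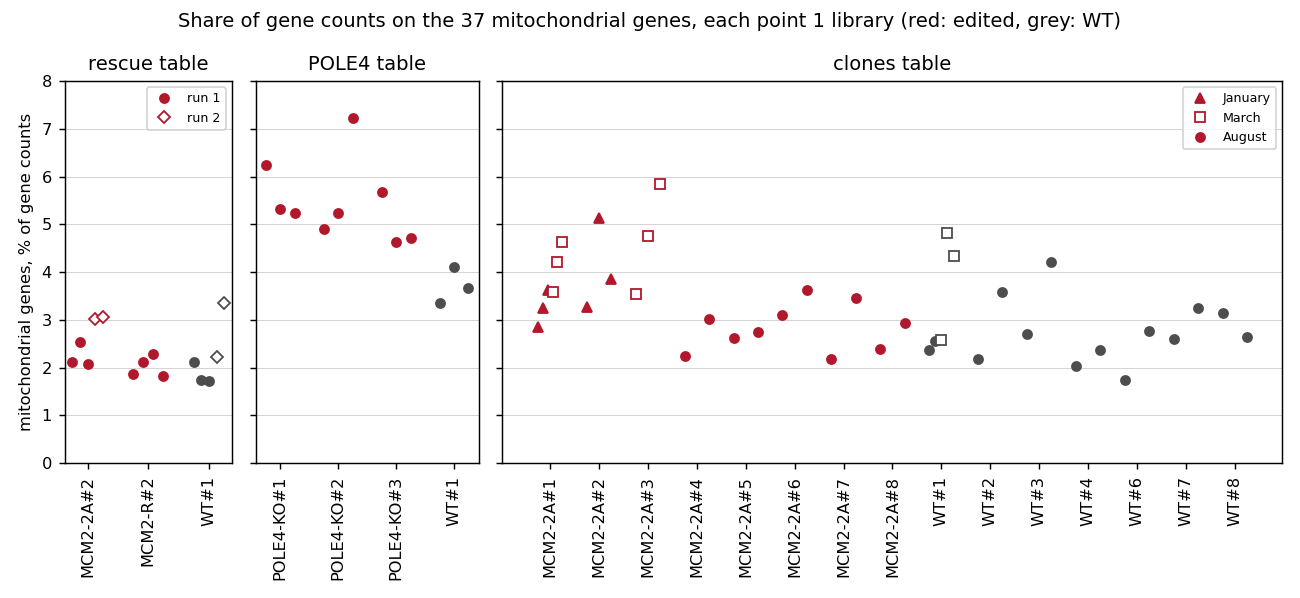
Share of gene counts on the 37 mitochondrial genes, in percent, with 1 point per library, by line (red: edited, grey: WT) in the rescue, POLE4 and clone tables. The 9 POLE4-KO libraries lie between 4.62% and 7.23%, all above the 3 WT#1 libraries of that table at 3.36% to 4.10%, whereas edited and WT lines overlap in the other tables.

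Of the 23 mitochondrial genes tested, 11 were higher in POLE4-KO cells than in WT#1, most of them protein genes of the heavy strand. POLE4 is a small histone-fold subunit of the leading-strand DNA polymerase epsilon in the nucleus. The comparison sets 3 knockout clones against 1 wild-type clone, on the spread between libraries. An effect of the loss of POLE4 therefore cannot be told apart from a trait of the clone WT#1. Among the 7 August WT lines of the clone table the mitochondrial share ran from 2.19% (WT#4) to 3.26% (WT#3), with WT#1 at 2.46%. These shares are not like for like with those of the POLE4 table. The 37 genes held 6.23%, 5.33% and 5.23% of gene counts in the libraries 1, 2 and 3 of POLE4-KO#1, 4.90%, 5.23% and 7.23% in POLE4-KO#2 and 5.68%, 4.62% and 4.71% in POLE4-KO#3, against 3.36%, 4.10% and 3.67% in the libraries 6, 7 and 8 of WT#1. Each POLE4-KO library was above each WT#1 library, and library 3 of POLE4-KO#2 was the highest. The rRNA genes made up 3.69% to 5.75% of gene counts in POLE4-KO against 2.71% to 3.41% in WT#1, the protein genes 0.790% to 1.47% against 0.649% to 0.692%, and the tRNA genes 0.00561% to 0.00799% against 0.00438% to 0.00541%.

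These 11 were called higher in the mean of the POLE4-KO lines, and 0 were called lower. A call needs an adjusted p below 0.01 (edgeR quasi-likelihood test, Benjamini-Hochberg over 16864 genes) and a log2 fold change (log2FC) beyond 0.58. Over all genes tested 5.84% were called and 2.13% were called higher. The log2 fold change was above 0 for 22 of the 23 members, with a median of 0.61, against a median of -0.02 over all genes. Most members are cut from the same heavy-strand RNA. Counts of members, here and below, are therefore not counts of independent genes. The called members were 9 of 13 protein genes, 1 of 2 rRNA genes and 1 of 8 tRNA genes. The other 14 members, all tRNA genes, were under the filter on low counts and were not tested. DESeq2, a second test, called all of the 11 members but mt-Co2 and mt-Atp8. Of 21 alternative settings the mt-Co2 call held in 7, that of mt-Atp8 in 12 and that of mt-Nd1 in 14. The calls of mt-Rnr2 and mt-Co3 held in 15 each, and those of mt-Atp6 and mt-Tf in all 21.

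mt-Atp6, the subunit of ATP synthase that forms part of its proton channel, had the largest difference. It stood at 229.5, 319 and 395 CPM (lowest, median and highest of 9 libraries) in POLE4-KO, against 139.9, 179 and 108 CPM in the 3 WT#1 libraries (log2FC 1.13, SE 0.14, edgeR adjusted p = 2.38e-05). The groups did not overlap. This gene has a copy with no base different, and the sum of mt-Atp6 and Gm10925 averaged 1145 ± 138, 1337 ± 374 and 1025 ± 25.8 CPM in POLE4-KO#1, #2 and #3, against 720.1 ± 35.7 CPM in WT#1 (mean ± SD, n = 3 libraries each). With the counts of the copies added to their genes, an alternative chosen after seeing the data, mt-Atp6 had a log2 fold change of 0.69 (edgeR adjusted p = 0.00073) and 9 members were called in place of 11.

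The genes that share no read-length window with an annotated nuclear transcript gave the same direction, but nuclear sequence without annotation was not searched. mt-Nd1 had 1255, 1350 and 2262 CPM (lowest, median, highest) in POLE4-KO, against 987, 1030 and 920 CPM in WT#1 (log2FC 0.58, SE 0.12, edgeR adjusted p = 0.00194), just above the fold limit. mt-Cytb had 927, 1087 and 1630 CPM in POLE4-KO, against 709, 764 and 699 CPM in WT#1 (0.64, SE 0.11, edgeR adjusted p = 0.00056). For both genes each POLE4-KO library was above each WT#1 library. mt-Rnr2 had 28992, 33475 and 42767 CPM in POLE4-KO, against 20646, 24903 and 22332 CPM in WT#1 (0.61, SE 0.13, edgeR adjusted p = 0.0040), again without overlap. mt-Atp8, the small partner subunit of mt-Atp6, had 47.7, 62.3 and 123 CPM in POLE4-KO, against 27.7, 49.97 and 35.7 CPM in WT#1 (0.87, SE 0.22, edgeR adjusted p = 0.0092). Its groups overlapped, since library 3 of POLE4-KO#3 lay below library 7 of WT#1.

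The complex I subunits mt-Nd2, mt-Nd4 and mt-Nd5 were also higher. mt-Nd5 had 588.3, 697 and 1238 CPM in POLE4-KO, against 466.2, 509.1 and 465.8 CPM in WT#1 (log2FC 0.68, SE 0.13, edgeR adjusted p = 0.00189). mt-Nd4 had 458, 565 and 904 CPM against 364, 404 and 354 CPM (0.64, SE 0.13, edgeR adjusted p = 0.00282), and mt-Nd2 had 365, 434 and 798 CPM against 268, 337 and 278 CPM (0.66, SE 0.15, edgeR adjusted p = 0.00528). None of these 3 overlapped between the groups. In complex IV mt-Co3 had 229, 281 and 356 CPM in POLE4-KO, against 204, 196 and 92.4 CPM in WT#1 (0.79, SE 0.19, edgeR adjusted p = 0.00629), and mt-Co2 had 210.5, 310.4 and 490.3 CPM against 245, 199 and 175 CPM (0.68, SE 0.17, edgeR adjusted p = 0.0093). mt-Co3 did not overlap and mt-Co2 did. With the copies added, mt-Co2 and mt-Co3 had log2 fold changes of 0.48 and 0.49, under the fold limit. mt-Co1 did not overlap either, with 3643, 4076 and 6055 CPM in POLE4-KO against 2986, 2958.5 and 3065 CPM in WT#1, but its log2 fold change of 0.49 (SE 0.11, edgeR adjusted p = 0.0054) was under the fold limit.

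**Figure D3:**
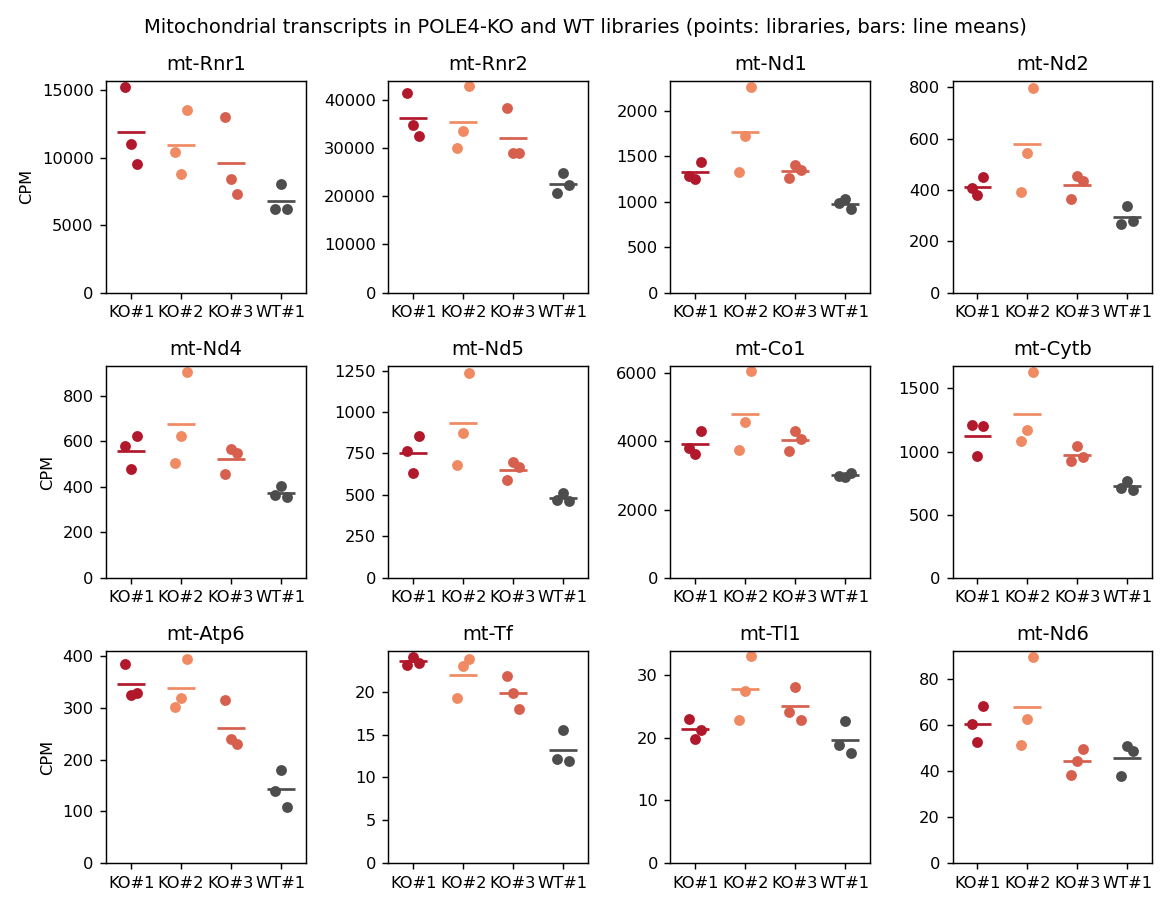
Levels of 12 mitochondrial genes in CPM (linear axes from 0), with 1 point per library and a bar at the mean of each line, for POLE4-KO#1, #2, #3 and WT#1 (3 libraries each). For mt-Atp6, mt-Nd1, mt-Cytb, mt-Rnr2 and mt-Tf the 9 POLE4-KO points lie above the 3 WT#1 points, whereas for mt-Nd6, mt-Tl1 and mt-Rnr1 they overlap.

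Among the tRNAs mt-Tf was the one called. It had 18.0, 23.0 and 24.1 CPM (lowest, median, highest) in POLE4-KO, against 12.2, 15.5 and 11.97 CPM in WT#1 (log2FC 0.72, SE 0.10, edgeR adjusted p = 7.90e-05), without overlap. mt-Tl1, the tRNA with the highest mean level in this table, had 19.8, 23.0 and 33.0 CPM against 18.9, 22.6 and 17.5 CPM (0.32, SE 0.11, edgeR adjusted p = 0.048) and was not called. mt-Tv was the one tested member with a log2 fold change below 0 (-0.34), with 0.430, 0.637 and 0.902 CPM in POLE4-KO and 0.739, 0.923 and 0.628 CPM in WT#1. In all, 10 of 23 tested members had each POLE4-KO library above each WT#1 library, as did 3.07% of all genes tested.

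The members that were not called include the light-strand gene. mt-Nd6 had 38.3, 52.8 and 89.5 CPM in POLE4-KO, against 37.7, 50.9 and 48.7 CPM in WT#1 (log2FC 0.31, SE 0.14, edgeR adjusted p = 0.126), and the groups overlapped. Of 21 heavy-strand members tested 11 were called, and of 2 light-strand members (mt-Nd6 and mt-Tp, a tRNA) 0 were, 1 of them at an unadjusted p under 0.05. Relative to the mean of mt-Nd1, mt-Nd2, mt-Nd5 and mt-Cytb per kb, mt-Nd6 stood at 10.5%, 12.8% and 15.3% (lowest, median, highest) in POLE4-KO, against 13.4%, 16.7% and 17.9% in WT#1. These ranges overlapped, and the difference between the strands was not tested. mt-Rnr1 had 7305, 10444 and 15223 CPM in POLE4-KO against 6224, 8053 and 6164 CPM in WT#1 (0.66, SE 0.18, edgeR adjusted p = 0.0168), with overlap, and was not called.

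The 3 lines were unequal in the number of calls. POLE4-KO#2 had 11 of 23 members called higher (11.5% of all genes called, 4.56% called higher), POLE4-KO#1 had 5 (11.6% and 3.62%) and POLE4-KO#3 had 2 (2.99% and 2.56%), and no line had a member called lower. mt-Tf was called in each line, and mt-Atp6 was as well when counted without its copy. Of 21 alternative settings both calls held in all 21 in POLE4-KO#1 and in POLE4-KO#2. In POLE4-KO#3 the mt-Tf call held in 14 and the mt-Atp6 call in 17. mt-Atp6 had log2 fold changes of 1.28, 1.25 and 0.87 in POLE4-KO#1, #2 and #3 (SE 0.16 each, edgeR adjusted p = 1.51e-05, 2.27e-05 and 0.00194), and mt-Tf had 0.83, 0.73 and 0.58 (SE 0.12 each, edgeR adjusted p = 5.14e-05, 0.000189 and 0.00396). POLE4-KO#3, the line with the fewest calls, had the smallest value for both. With the counts of Gm10925 added, mt-Atp6 had log2 fold changes of 0.67, 0.89 and 0.51 (edgeR adjusted p = 0.0023, 0.00022 and 0.0272), so that it was not called in POLE4-KO#3.

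In POLE4-KO#1 the other calls were mt-Rnr2 (log2FC 0.68, SE 0.16, edgeR adjusted p = 0.00448), mt-Nd5 (0.65, SE 0.16, adjusted p = 0.0062) and mt-Cytb (0.64, SE 0.13, adjusted p = 0.00144). In POLE4-KO#2 they were mt-Atp8 (1.15, SE 0.25), mt-Nd2 (0.98, SE 0.18), mt-Nd5 (0.96, SE 0.16), mt-Co2 (0.93, SE 0.20), mt-Nd1 (0.86, SE 0.14), mt-Nd4 (0.86, SE 0.16), mt-Cytb (0.84, SE 0.13), mt-Co1 (0.68, SE 0.14) and mt-Rnr2 (0.65, SE 0.16), with edgeR adjusted p values between 0.00014 and 0.00616. The catalytic subunit gene mt-Co1 and mt-Nd1, a gene without an annotated copy, were thus called in POLE4-KO#2 alone. For mt-Nd1 the values were 0.44 (SE 0.14, edgeR adjusted p = 0.0253) in POLE4-KO#1 and 0.45 (SE 0.14, adjusted p = 0.0399) in POLE4-KO#3, and for mt-Co1 they were 0.38 (SE 0.14, adjusted p = 0.0446) and 0.42 (SE 0.14, adjusted p = 0.0489). mt-Cytb had 0.43 (SE 0.13, adjusted p = 0.0362) and mt-Rnr2 0.51 (SE 0.16, adjusted p = 0.0465) in POLE4-KO#3. mt-Rnr1 had 0.81, 0.68 and 0.49 in POLE4-KO#1, #2 and #3 (SE 0.22 each, edgeR adjusted p = 0.0109, 0.026 and 0.144), and mt-Tl1 had 0.12, 0.49 and 0.34 (SE 0.13 each, adjusted p = 0.565, 0.0096 and 0.0972).

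The lines also differed in the light-strand gene mt-Nd6. It had 60.5, 52.8 and 68.5 CPM in the libraries 1, 2 and 3 of POLE4-KO#1, 51.3, 62.7 and 89.5 CPM in POLE4-KO#2 and 38.3, 44.6 and 49.8 CPM in POLE4-KO#3. POLE4-KO#3 was the lowest at each library number and lay within the range of WT#1 (37.7 to 50.9 CPM) in each. Against WT#1 mt-Nd6 had log2 fold changes of 0.40, 0.57 and -0.05 (SE 0.17 each, edgeR adjusted p = 0.0857, 0.0176 and 0.886). In the test of whether the 3 lines differ, with edgeR and a limit on the adjusted p alone, 0 of 23 members were called (30.8% of all genes were), DESeq2 called 2 (mt-Nd1 and mt-Cytb), and 8 were at an unadjusted p under 0.05. Among the genes of the naming rule mt-Nd6 had the lowest adjusted p (0.018, largest difference 0.62), and mt-Nd1 (0.42, adjusted p = 0.0261), mt-Cytb (0.41, adjusted p = 0.0425), mt-Tl1 (0.38, adjusted p = 0.0686), mt-Atp6 (0.41, adjusted p = 0.0715), mt-Co1 (0.29, adjusted p = 0.155), mt-Rnr1 (0.31, adjusted p = 0.461) and mt-Rnr2 (0.17, adjusted p = 0.607) followed.

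The POLE4-KO libraries deviated together by number, and a block for the number changed this count. Fitted to the POLE4-KO libraries alone, an alternative chosen after seeing the data, 1 of 23 members was called (29.7% of all genes), namely mt-Nd4l. With the library number as a replicate block 6 of 23 were called (45.3% of all genes): mt-Nd6 (largest difference 0.62, edgeR adjusted p = 0.000113), mt-Nd1 (0.40, adjusted p = 0.00234), mt-Atp6 (0.42, adjusted p = 0.00308), mt-Nd5 (0.50, adjusted p = 0.00462), mt-Nd2 (0.45, adjusted p = 0.00482) and mt-Nd4l (1.96, adjusted p = 1.38e-05). mt-Nd4l and mt-Atp6 are genes with a copy. mt-Nd4l alone averaged 11.1 ± 3.74, 18.3 ± 4.72 and 4.63 ± 1.25 CPM in POLE4-KO#1, #2 and #3, but its sum with Gm10222 averaged 56.3 ± 9.23, 68.1 ± 6.52 and 53.2 ± 5.63 CPM (mean ± SD, n = 3 libraries each). In the same block fit with the copies added, also chosen after seeing the data, neither mt-Nd4l (largest difference 0.37, edgeR adjusted p = 0.0125) nor mt-Atp6 (0.37, adjusted p = 0.0122) was called. Again 6 of 23 members were called there (45.4% of all genes), namely mt-Nd1, mt-Nd2, mt-Nd5 and mt-Nd6 as before and mt-Co2 and mt-Nd3.

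The counts of calls rest in part on single libraries, since WT#1 is 1 clone with 3 libraries. Without library 8 of WT#1 3 members were called in the mean comparison (mt-Tf, mt-Atp6 and mt-Cytb), without its library 6 there were 4 (these and mt-Co3), and without library 3 of POLE4-KO#2 there were 5 (mt-Tf, mt-Atp6, mt-Atp8, mt-Co3 and mt-Nd5). Fibroblast markers (5 genes) summed to 5.01 to 5.47 CPM in POLE4-KO#1, 9.14 to 11.03 CPM in POLE4-KO#2 and 70.3 to 88.5 CPM in POLE4-KO#3, against 79.0 to 80.3 CPM in WT#1, with 3 of 4 tested called lower in the mean of the lines. Their part in the result, like that of Gm26917 and of the differences between clones, was not tested.

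Genes for mitochondrial proteins that the nucleus encodes were not called in the mean of the POLE4-KO lines, where 5.84% of all genes were called and 35.3% were at an unadjusted p under 0.05. Of 76 tested genes for subunits of the respiratory chain and ATP synthase 0 were called (median log2 fold change -0.06, 10 at an unadjusted p under 0.05), and of 78 genes for mitochondrial ribosomal proteins 0 were called (median -0.07, 21 at an unadjusted p under 0.05). Likewise 0 of 10 genes of mitochondrial transcription, 0 of 7 of mitochondrial DNA replication and 0 of 20 of mitochondrial RNA processing were called by edgeR, with 2, 2 and 5 at an unadjusted p under 0.05, and DESeq2 likewise called 0 in each of the 5 lists. In single lines there were a few calls, against 11.6% of all genes in POLE4-KO#1 and 11.5% in POLE4-KO#2. POLE4-KO#1 had Mterf2 (a member of the mitochondrial transcription termination factor family) at 0.73 and Primpol (a primase-polymerase found in nucleus and mitochondria) at 0.74, both called higher (edgeR adjusted p = 0.0085 and 0.00039), and Grsf1 (an RNA-binding protein of mitochondrial RNA granules) at -0.68, called lower (adjusted p = 1.03e-06). POLE4-KO#2 had Mrpl16, Mrpl52 and Mrpl57, proteins of the large mitochondrial ribosomal subunit, at -0.59, -1.13 and -1.001 and the ATP synthase subunit Atp5e at -0.69, each called lower by edgeR (adjusted p between 1.09e-05 and 0.0095).

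**Figure D4:**
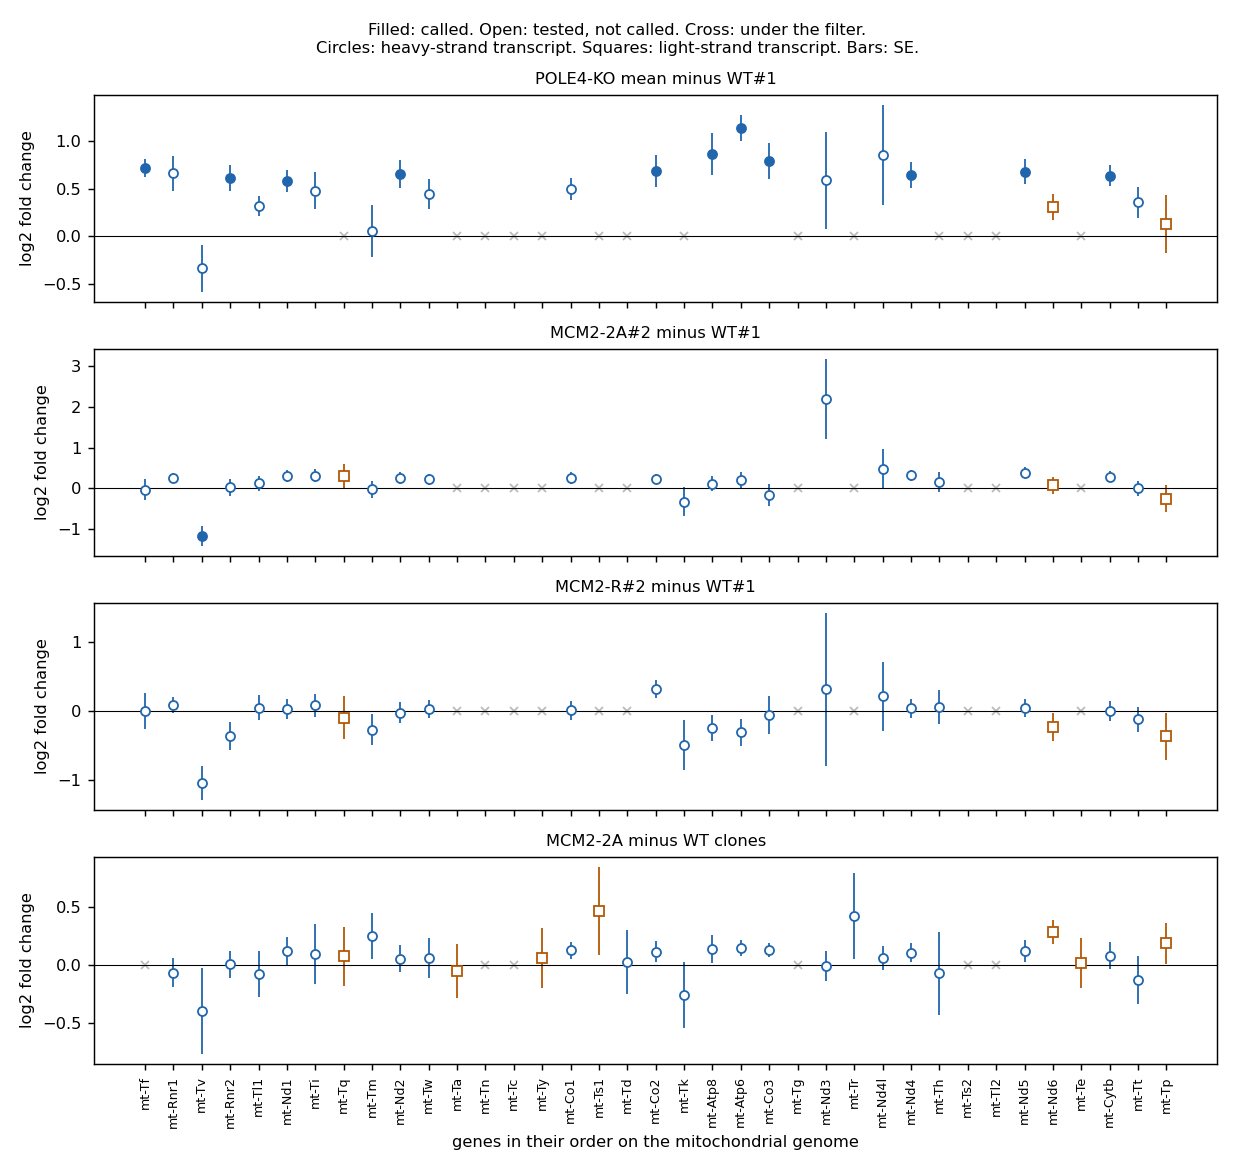
Log2 fold changes with their SE for the mitochondrial genes in genome order, in 4 comparisons (POLE4-KO mean, MCM2-2A#2 and MCM2-R#2, each minus the WT#1 of its table, and MCM2-2A minus WT clones). Circles are heavy-strand and squares light-strand transcripts, filled where called, and crosses mark members under the filter. In the POLE4-KO panel 11 symbols are filled and above 0, in the MCM2-2A#2 panel 1 (mt-Tv, below 0) and in the other panels none.

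In the rescue experiment the mitochondrial transcripts of the MCM2-2A#2 clone overlapped those of WT#1. Per culture 1, 2, 3 and 4 the 37 genes held 2.11%, 2.54%, 3.02% and 2.51% of gene counts in MCM2-2A#2, 1.85%, 2.11%, 2.28% and 1.82% in MCM2-R#2, and 2.12%, 1.73%, 1.96% and 3.36% in WT#1. Culture 4 of WT#1 was the highest of the 12. MCM2-2A#2 was above the other 3 WT#1 cultures in 3 of its 4 cultures, and MCM2-R#2 spanned a narrower range.

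Of the 26 members tested 1 was called between MCM2-2A#2 and WT#1, the tRNA gene mt-Tv, and it was lower (2.75% of all genes were called and 1.08% were called lower). mt-Tv had 0.409, 0.665, 0.529 and 0.604 CPM in MCM2-2A#2, against 1.51, 1.06, 0.918 and 1.67 CPM in WT#1 (log2FC -1.18, SE 0.25, edgeR adjusted p = 0.00655). Each MCM2-2A#2 culture was below each WT#1 culture. These levels rest on 12 to 20 counts per library in MCM2-2A#2 and 21 to 53 in WT#1. MCM2-R#2 had 0.507, 0.542, 0.843 and 0.555 CPM, also below each WT#1 culture, but its log2 fold change of -1.05 against WT#1 was not called (edgeR adjusted p = 0.087). The call in MCM2-2A#2 was lost without any 1 of its cultures and without culture 1 or 4 of WT#1. It was also lost in libraries labelled tech1 alone (-0.92, edgeR adjusted p = 0.0897). The value stayed between -1.34 and -0.92 under the alternatives tried.

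The other named members did not pass the test. mt-Nd1 had 1399, 1957.5, 2011 and 1706 CPM in MCM2-2A#2, against 1308, 1246, 1309 and 1903 CPM in WT#1 (log2FC 0.29, SE 0.15, edgeR adjusted p = 0.192). mt-Cytb had 1469.7, 1967, 1899.7 and 1826 CPM against 1452, 1195, 1263 and 1978 CPM (0.28, SE 0.14, edgeR adjusted p = 0.195). For both the groups overlapped only through culture 4 of WT#1. The values of mt-Co1 (0.25, SE 0.14), mt-Rnr1 (0.25, SE 0.12), mt-Atp6 (0.20, SE 0.20), mt-Tl1 (0.12, SE 0.19), mt-Nd6 (0.07, SE 0.21) and mt-Rnr2 (0.02, SE 0.21) had edgeR adjusted p values between 0.168 and 0.962. mt-Nd3 had the largest log2 fold change (2.20, SE 0.98, adjusted p = 0.148) on 1.70, 2.10, 3.61 and 4.62 CPM in MCM2-2A#2 against 0 to 1.51 CPM in WT#1, and its copy took 89.5% or more of the summed counts. Over the 26 members the median was 0.21, against -0.01 over all genes, with 5 at an unadjusted p under 0.05.

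The reverted clone was compared with both. Between MCM2-R#2 and WT#1 0 of 26 members were called (0.298% of all genes were), with 0 by DESeq2 and 2 at an unadjusted p under 0.05. mt-Nd1 had 1261, 1633.5, 1673 and 1289.6 CPM in MCM2-R#2, a log2 fold change of 0.02 (SE 0.15) against WT#1, and mt-Rnr2 had 7412, 9017, 9915 and 7067 CPM in MCM2-R#2 against 9425, 7592, 9351 and 16685 CPM in WT#1 (-0.37, SE 0.21, edgeR adjusted p = 0.533). Here the other fixed genes were mt-Atp6 (-0.31, SE 0.20), mt-Nd6 (-0.23, SE 0.21), mt-Rnr1 (0.09, SE 0.12), mt-Tl1 (0.05, SE 0.19), mt-Co1 (0.01, SE 0.14) and mt-Cytb (-0.0018, SE 0.14), with edgeR adjusted p values between 0.586 and 0.9995. Between MCM2-R#2 and MCM2-2A#2 0 of 26 were called (1.37% of all genes were), again with 0 by DESeq2 and 2 at an unadjusted p under 0.05. The lowest edgeR adjusted p was that of mt-Atp6 (-0.50, SE 0.20, adjusted p = 0.127), a gene with an identical copy. mt-Rnr2 had -0.39 (SE 0.21), mt-Nd6 -0.31 (SE 0.21), mt-Cytb -0.28 (SE 0.14), mt-Nd1 -0.27 (SE 0.15), mt-Co1 -0.24 (SE 0.14), mt-Rnr1 -0.16 (SE 0.12) and mt-Tl1 -0.07 (SE 0.19), with edgeR adjusted p values between 0.23 and 0.861. Median values were -0.004 against WT#1 and -0.24 against MCM2-2A#2, and the comparisons share their samples. Of the context lists, 0 of 76 nuclear respiratory chain genes and 0 of 78 mitochondrial ribosomal protein genes were called in these 3 comparisons, and the lists of transcription, replication and RNA processing genes had 0 calls as well. DESeq2 called 0 in these lists too, and for the respiratory chain genes 17, 3 and 17 were at an unadjusted p under 0.05 in MCM2-2A#2 against WT#1, MCM2-R#2 against WT#1 and MCM2-R#2 against MCM2-2A#2, as were 29.8%, 11.2% and 24.5% of all genes. Primitive endoderm markers (5 genes) summed to 30.9 to 45.2 CPM in MCM2-2A#2 and 11.5 to 14.6 CPM in MCM2-R#2, against 10.6 to 15.0 CPM in WT#1. Their part in these values was not tested.

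The technical run moved with the levels. The labels mark libraries as tech1 or tech2, called the first and second run here. They do not say whether these are sequencing runs or separate library preparations. Culture 4 of WT#1 and culture 3 of MCM2-2A#2 have libraries of the second run alone. Culture 3 of WT#1 and culture 4 of MCM2-2A#2 have libraries of both, and MCM2-R#2 of the first alone. In the second run the 37 genes held 2.23% and 3.36% of gene counts for WT#1 and 3.02% and 3.06% for MCM2-2A#2. In the first run they held 2.08% to 2.54% in MCM2-2A#2, 1.82% to 2.28% in MCM2-R#2 and 1.72% to 2.12% in WT#1. For the cultures with libraries of both, the second run gave 3.06% against 2.08% in the first for culture 4 of MCM2-2A#2. For culture 3 of WT#1 it gave 2.23% against 1.72%. By gene, 11 of 13 protein genes were higher in the second run for MCM2-2A#2 culture 4 (median ratio 1.22) and 13 of 13 for WT#1 culture 3 (median ratio 1.16), with 8 and 10 of 11 tRNA genes and 1 of 2 rRNA genes (mt-Rnr2) in each. Within the first run alone 0 of 26 members were called in any of the 3 comparisons. The ratio of mt-Rnr2 to mt-Rnr1 per kb was 17.0 in the second run and 8.82 in the first for WT#1 culture 3. For MCM2-2A#2 culture 4 it was 18.1 and 9.91. Whether the run itself accounts for the higher values was not tested.

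Across the clones of the third table no member was called between MCM2-2A and WT lines (0 of 31, against 0.615% of all genes), with 0 by DESeq2 and 2 at an unadjusted p under 0.05. The unit here is a clone within a batch (17 units), with batch as a covariate. WT#1 and MCM2-2A#1 were sequenced in 2 batches each, so the 17 units are 15 clones, and leaving out either of these clones gave 0 calls again. The median log2 fold change of the members was 0.07, against -0.02 over all genes. mt-Nd6 came nearest, with 51.0, 51.2, 65.6, 45.9 and 48.9 CPM in the August lines MCM2-2A#4, #5, #6, #7 and #8, against 37.0, 46.2 and 57.1 CPM (lowest, median and highest of 7 lines) in WT. The fitted log2 fold change was 0.29 (SE 0.10, edgeR adjusted p = 0.116), and the lines overlapped. mt-Nd1 had 1075, 1109.6, 1408, 1145 and 1003 CPM in the same MCM2-2A lines, against 830.3, 1084 and 1556 CPM in WT (0.12, SE 0.12, edgeR adjusted p = 0.605). The remaining fixed genes were mt-Atp6 (0.15, SE 0.07), mt-Co1 (0.13, SE 0.07), mt-Cytb (0.08, SE 0.11), mt-Tw, the tRNA-Trp and the most abundant tRNA of this table (0.06, SE 0.17), mt-Rnr2 (0.01, SE 0.12) and mt-Rnr1 (-0.07, SE 0.13), with edgeR adjusted p values between 0.253 and 0.984. Within batches the 37 genes held 2.19% to 3.62% of gene counts in MCM2-2A and 1.73% to 4.22% in WT libraries in August, and 3.54% to 5.84% in MCM2-2A and 2.58% to 4.83% in WT#1 libraries in March. The January columns analysed are MCM2-2A alone (2.85% to 5.14%), since the 3 January libraries that the labels give for WT#5 were matched to no column and were not analysed here. In March mt-Nd6 averaged 90.02 ± 18.5 CPM in MCM2-2A#1 and 118 ± 64.1 CPM in MCM2-2A#3, against 69.2 ± 27.6 CPM in WT#1 (mean ± SD, n = 3 libraries each), and these libraries overlapped. The 5 lists of nuclear genes had 0 calls by edgeR and by DESeq2 in this comparison, with 5 of 75 respiratory chain genes and 6 of 77 mitochondrial ribosomal protein genes at an unadjusted p under 0.05 (21.1% of all genes were).

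The August lines show how far clones of 1 genotype differ. Among the 7 WT lines 3 of 24 members tested were called for a difference between lines (33.1% of all genes were), and these were tRNA genes: mt-Tw, mt-Tt (tRNA-Thr) and mt-Tl1. mt-Tl1 had means of 4.64, 5.75, 6.57, 3.52, 3.03, 5.09 and 6.08 CPM in WT#1, #2, #3, #4, #6, #7 and #8, a largest difference of 1.10 on the log2 scale (edgeR adjusted p = 0.0074). WT#3 was the highest and WT#6 the lowest. mt-Tw, with 3.55 to 7.21 CPM, had a largest difference of 1.02 (edgeR adjusted p = 0.0044), and mt-Tt, with 0.881 to 2.24 CPM, of 1.33 (edgeR adjusted p = 0.0056). Among the 5 MCM2-2A lines 1 of 24 was called (17.3% of all genes were), again mt-Tl1, with 4.07, 3.13, 6.86, 4.55 and 3.58 CPM in MCM2-2A#4 to #8 (largest difference 1.14, edgeR adjusted p = 0.0082). Without WT#6 0 members were called among the WT lines and without WT#2 7 were. Of the 13 protein and 2 rRNA genes 0 were called by edgeR in either genotype without a term for the library number, with 8 protein genes among the WT lines and 0 among the MCM2-2A lines at an unadjusted p under 0.05. With the library number as a replicate block and without WT#1, 10 protein genes and 3 tRNA genes were called among the WT lines (34.6% of all genes), mt-Nd1 (largest difference 0.86, edgeR adjusted p = 0.00023), mt-Cytb (0.88, adjusted p = 0.00057) and mt-Nd6 (0.62, adjusted p = 0.0018) among them but not mt-Tt (adjusted p = 0.0133). Among the MCM2-2A lines mt-Tl1, mt-Co1 and mt-Nd6 were called in this fit (22.5% of all genes). Without WT#1 and without the block 2 and 1 were called. DESeq2 called 5 members among the WT lines (mt-Tl1, mt-Tw, mt-Tt, mt-Nd3 and mt-Nd4) and 2 among the MCM2-2A lines (mt-Tl1 and mt-Tw). The largest differences among WT lines were 0.89 for mt-Cytb (edgeR adjusted p = 0.0495), 0.89 for mt-Nd1 (adjusted p = 0.0392), 0.83 for mt-Rnr2, 0.79 for mt-Rnr1, 0.60 for mt-Nd6, 0.53 for mt-Atp6 and 0.42 for mt-Co1 (adjusted p between 0.211 and 0.542). Among MCM2-2A lines they were 0.99 for mt-Tw (adjusted p = 0.0366), 0.54 for mt-Rnr1, 0.53 for mt-Nd6, 0.52 for mt-Rnr2, 0.51 for mt-Nd1, 0.44 for mt-Co1, 0.35 for mt-Cytb and 0.28 for mt-Atp6 (adjusted p between 0.31 and 0.828).

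**Figure D5:**
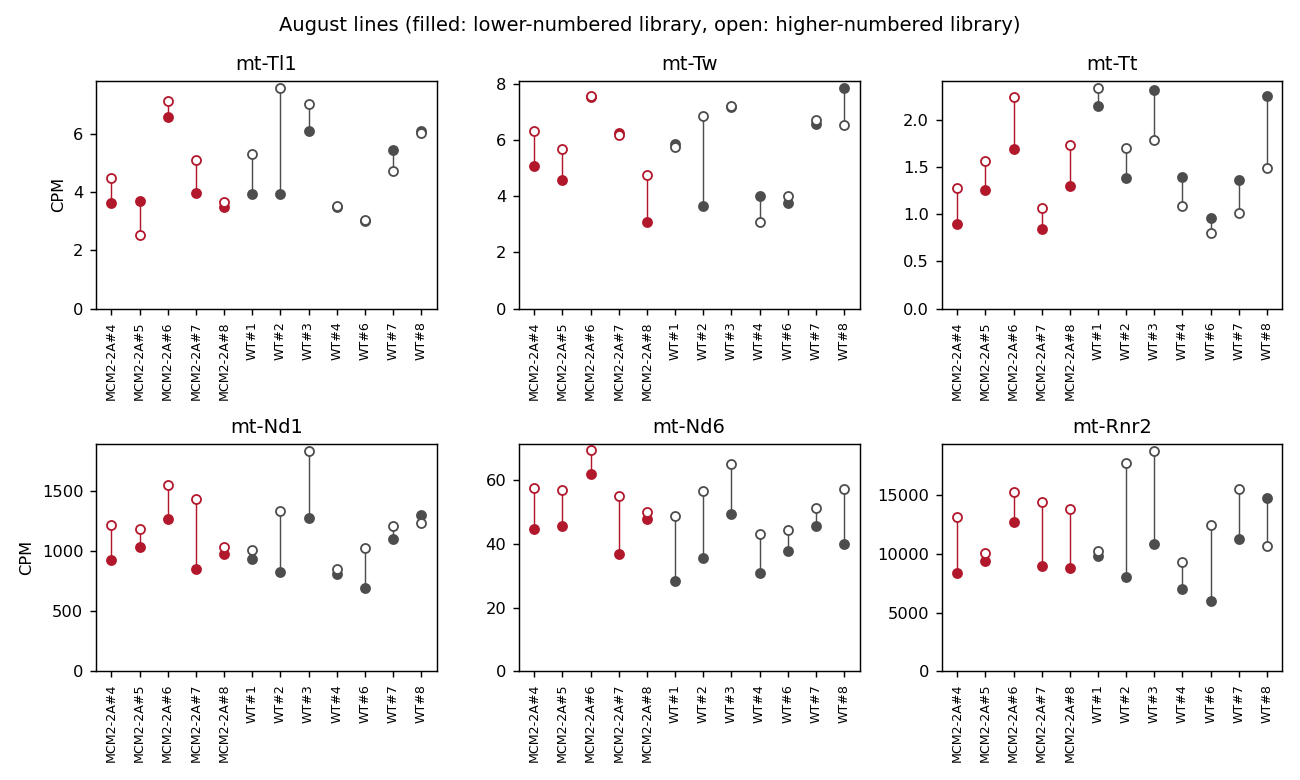
Levels of mt-Tl1, mt-Tw, mt-Tt, mt-Nd1, mt-Nd6 and mt-Rnr2 in CPM in the August lines, with 2 libraries per line joined by a line (filled: lower-numbered, open: higher-numbered library), MCM2-2A lines in red on the left and WT lines in grey on the right. For mt-Nd1 the higher-numbered library lies above its partner in 11 of 12 lines, and line means overlap between the genotypes in each panel.

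The spread between the 2 libraries of a line was of similar size to that between lines for the abundant members. The higher-numbered August library had the larger mitochondrial share in 11 of 12 lines, and likewise the higher level of mt-Nd1 and of mt-Rnr2 in 11 of 12 lines each. The ratio for mt-Nd1 ran from 0.948 to 1.68. What the number stands for, beyond a repeat of the line, is not given in the labels.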

How the data were processed

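RNA was extracted from untreated E14JU ESCs, depleted of rRNA and made into strand-specific paired-end libraries (76 or 100 bases). Per the labels, trimming used Trimmomatic 0.39 and alignment used STAR 2.7.1a on mm10, and featureCounts is named for the POLE4 and clone tables; the counter of the rescue table and the handling of reads with several positions are not given in the sources used here. The authors deposited 3 tables of raw counts per gene (55335) and repeat subfamily (1146). In all, 65 columns were used, and 3 columns of a line that no label names were left out.

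Counts of repeated runs were summed per culture, and libraries of a clone within a batch were summed in the clone comparison. edgeR 4.0.16 (R 4.3.3) quasi-likelihood tests were fitted to all features passing filterByExpr (min.count 10, min.total.count 15), with TMM factors from gene rows and batch as a covariate for the clones, and p values were adjusted with Benjamini-Hochberg over all genes tested. A call needs adjusted p < 0.01 and an absolute log2 fold change over 0.58, and for differences among lines the adjusted p alone. SE is the size of the log2 value over the root of its F statistic. CPM are TMM-scaled. The scripts were tested on simulated data. Fold changes are given for members called and for mt-Nd1, mt-Nd6, mt-Cytb, mt-Co1, mt-Atp6, both rRNAs and the most abundant tRNA of a table. Members outside this rule are named by values only. The members and lists were chosen with earlier results of these data known. Symbols come from GENCODE vM21, which named 55154 gene rows.

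Replicate numbers were checked by the correlation of deviations from line means. All 9 same-numbered pairs of POLE4-KO libraries exceeded 0.1 (0.165 to 0.345), so these libraries were taken as paired, from the data and not from a label. Of the differently numbered pairs 0 of 18 did. Deviations from a line mean sum to 0, which pushes these pairs down, so they are no separate evidence of pairing. Columns of WT#1 in the POLE4 table carry other numbers (6 to 8) and were matched to their group only. Nothing states that libraries of a line came from separate cultures in the POLE4 and clone tables, so p values measure the spread between these libraries. Alternatives were DESeq2 1.42.0, other scalings, filters and limits, single runs, blocks and leaving out each library, culture or line.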

Additional observations from a re-analysis of the deposited data

Results flagged for a closer look

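Of 52 groups of 4 to 7 cultures or lines tested for a lone extreme value with Dixon's criterion, 7 had one. Chance gives about 1 in 20 for independent groups. These groups are not independent, since they share cultures and lines, so the count cannot be set against that rate. In culture 1 of MCM2-2A#2 mt-Co1 had 4519 CPM, against 5490.3 to 5666 CPM in the other cultures of this line. In culture 3 of MCM2-R#2 mt-Tv had 0.843 CPM, with the next value at 0.555 CPM. Culture 4 of WT#1, with a library of the second run alone, had 1903 CPM of mt-Nd1 (next value 1309 CPM) and 536.5 CPM of mt-Rnr1 (next value 473 CPM). Among the August MCM2-2A lines MCM2-2A#6 had 65.6 CPM of mt-Nd6 (next value 51.2 CPM) and 3.46% of gene counts on the 37 mitochondrial genes (next value 2.78%). Among the August WT lines WT#3 had 5121 CPM of mt-Co1 (next value 4345 CPM).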

How the results depend on the processing

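The count of called members moved by more than 1.5 times with the setting in 6 of the 11 comparisons, apart from leaving out samples. Without a filter on low counts it was 2 for MCM2-2A#2, 11 for POLE4-KO#1, 12 for the difference among POLE4-KO lines, 19 among August WT lines and 15 among August MCM2-2A lines, and with a filter at 50 counts it was 0 for MCM2-2A#2. At an adjusted p below 0.05 it was 10 for POLE4-KO#1, 6 among POLE4-KO lines, 11 among August WT lines and 3 among August MCM2-2A lines. With library totals in place of TMM factors it was 2 for POLE4-KO#1 and 1 for POLE4-KO#3, and with TMM factors without the mitochondrial genes and Gm26917, or with the counts of the copies added, it was 1 for POLE4-KO#3. DESeq2 called 2 among POLE4-KO lines, 5 among August WT lines and 2 among August MCM2-2A lines. For MCM2-2A#2 first-run libraries alone gave 0 and the run as a covariate gave 0. The causes were not tested.

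Leaving out 1 library, culture or line gave 0 to 1 calls for MCM2-2A#2, 0 for MCM2-R#2 against either line, 3 to 11 for the POLE4-KO mean, 3 to 9, 7 to 14 and 0 to 2 for POLE4-KO#1, #2 and #3, 0 to 5 among POLE4-KO lines, 0 for the clones, 0 to 7 among August WT lines and 0 to 2 among August MCM2-2A lines. Over all settings no called member changed sign.

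With the culture number as a replicate block the rescue comparisons kept counts of 1, 0 and 0, and 5 of 12 same-numbered pairs of cultures correlated above 0.1, so the numbers were not taken as pairs. With the library number as a replicate block, without WT#1, 13 members were called among August WT lines and 3 among MCM2-2A lines, where 78 of 110 same-numbered pairs were above 0.1. In the POLE4-KO libraries alone 1 member was called, 6 with the replicate block and 6 with the block and the copies added. For POLE4-KO against WT#1, no paired analysis was possible because the titles number the WT#1 libraries 1 to 3 but the columns 6 to 8, and nothing ties one to the other.

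Most tRNA genes had a few counts per library, so a difference in them was mostly not detectable. These counts did not follow depth alone between tables. mt-Tf had 247 to 599 counts in the POLE4 libraries and 14 to 32 in the rescue libraries. mt-Tq had 0 in each POLE4 library and 6 to 24 in the rescue libraries. The cause was not tested.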
